A study of Mus musculus with 6 samples.

Results

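The genes described here are 8 chemokines and 2 chemokine receptors of the endothelium, measured in glomerular endothelial cells (GEC) of normal and diabetic mice. Members were the probesets whose single annotated gene symbol was Cxcl16, Cx3cl1, Cxcl12, Cxcl10, Cxcl9, Cxcl1, Ccl2, Ccl7, Cxcr4 or Ackr3. All 10 genes were on the array, each with 1 probeset, among 19938 genes with a single symbol. Of the 10, 8 reached 100 on the linear scale in 3 or more of the 6 arrays, the level filter that the study's methods use, and were tested among 20661 probesets. Cxcl9 reached that level in 1 array and Ccl2 in 0 arrays, so both are given as values only.

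Each animal carried Tie2-GFP, a transgene in which the Tie2 promoter makes endothelial cells fluoresce, and was 7 months old. The normal group was wild type at the leptin receptor (Tie2-GFP/ +/+) and the diabetic group was db/db (Tie2-GFP/ DB/DB), a mutant without a working leptin receptor that becomes obese and diabetic. Glomeruli were sieved and dissociated, the GFP positive cells were sorted, and RNA of 3 normal and 3 db/db samples was amplified and hybridised to 1 Affymetrix Mouse Gene 1.0 ST array each. The labels do not say how many mice gave each sample. Tie2 is also known to be active in some blood-forming cells and monocytes, so the sort need not hold endothelium alone.

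Chemokines are small proteins that guide leukocytes along and out of blood vessels by binding G protein-coupled receptors. Most are secreted and held on the endothelial surface by heparan sulfate, whereas Cxcl16 and Cx3cl1 are made as transmembrane proteins with the chemokine domain on a mucin stalk, so that they tether leukocytes directly until proteases such as Adam10 and Adam17 release them. In glomeruli, chemokines made by endothelium and other resident cells are known to draw monocytes and T cells.

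Median log2 signal was 7.00 to 7.04 over the arrays. All 12 endothelial markers passed the level filter, and their mean log2 signal lay between 12.04 and 12.07 in normal arrays and between 12.03 and 12.08 in db/db arrays. On the first principal component (30.5% of variance) normal replicate 2 lay far from the other 5 arrays, and values without it are given where they matter. Of the 20661 probesets 0, or 0%, passed limma's test at an adjusted p of 0.05 (smallest adjusted p = 0.203). At an unadjusted p under 0.05 there were 1320 (6.39%), with 719 higher in db/db (3.48%) and 601 lower (2.91%). Every db/db array lay above every normal array for 7.01% of probesets and below for 5.31%. In bulk samples of this kind, fewer cells of a type and less RNA per cell cannot be told apart.

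RefSeq places Cxcl16, Ccl2 and Ccl7 on mouse chromosome 11, Cxcl1, Cxcl9 and Cxcl10 on chromosome 5, Cxcl12 on chromosome 6, Cx3cl1 on chromosome 8, and Cxcr4 and Ackr3 on chromosome 1 (build GRCm38.p6). Ccl2 (82035577 to 82037452) and Ccl7 (82045712 to 82047525) are neighbours in the cluster of CC chemokine genes, and Cxcl9 (92321331 to 92328079) and Cxcl10 (92346638 to 92348889) are neighbours in the cluster of CXC genes. The 250 bases before the annotated start are shown for Cx3cl1, a membrane-bound ligand that was higher in each db/db array, and for Cxcl10 and Cxcl9, interferon-induced ligands with their highest signal in the same array. They are the RefSeq windows chr8:94771930-94772179 on the plus strand, chr5:92348890-92349139 on the minus strand and chr5:92328080-92328329 on the minus strand, written 5′ to 3′, and capitals mark matches to the 3 motifs given next.
Cx3cl1: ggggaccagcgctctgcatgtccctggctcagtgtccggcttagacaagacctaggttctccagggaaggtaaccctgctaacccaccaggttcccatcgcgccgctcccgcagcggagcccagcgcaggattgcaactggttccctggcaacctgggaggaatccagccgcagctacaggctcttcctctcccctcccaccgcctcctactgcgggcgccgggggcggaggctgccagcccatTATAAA
Cxcl10: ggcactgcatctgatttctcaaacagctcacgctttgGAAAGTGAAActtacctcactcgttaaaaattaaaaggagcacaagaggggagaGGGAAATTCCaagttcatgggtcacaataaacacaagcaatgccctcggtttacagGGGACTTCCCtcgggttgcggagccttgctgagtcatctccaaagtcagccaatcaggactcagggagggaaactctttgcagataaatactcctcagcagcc
Cxcl9: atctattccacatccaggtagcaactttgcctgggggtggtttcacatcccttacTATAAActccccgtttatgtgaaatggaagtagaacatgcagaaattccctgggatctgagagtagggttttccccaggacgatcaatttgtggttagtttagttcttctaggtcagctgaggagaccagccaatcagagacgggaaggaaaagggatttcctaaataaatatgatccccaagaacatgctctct

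The motifs searched were the NF-kappaB consensus and the interferon-stimulated response element, both on either strand, and the TATA box TATAAA on the sense strand. The Cxcl10 window held 2 NF-kappaB matches, GGGAAATTCC starting 159 bases before the gene start and GGGACTTCCC starting 103 bases before it, and 1 interferon response element, GAAAGTGAAA, 213 bases before it. The Cx3cl1 window held neither of these and a TATA match 6 bases before the start, and the Cxcl9 window held a TATA match 195 bases before it. Of the 7 members with a window in the RefSeq table, Cxcl1 also held NF-kappaB matches, GGGAATTTCC and GGAATTTCCC, which overlap, starting 71 and 70 bases before the start. TATA matches also lay 30 bases before the start of Cxcr4 and 8 bases before that of Ackr3. Over all 32851 windows of this length 3.90% held the NF-kappaB consensus, 2.98% the interferon response element and 7.59% the TATA box. These matches describe the letters of the windows and say nothing of whether a factor binds there.

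The membrane-bound ligands were the members with the clearest difference between the groups. Cxcl16, which attracts T cells bearing Cxcr6 and also serves as a scavenger receptor for oxidised lipoprotein, had a log2 signal of 8.27, 8.51 and 8.81 in normal replicates 1 to 3 and 9.32, 9.34 and 9.56 in diabetic replicates 1 to 3. The groups did not overlap, and a gap of 0.51 lay between the highest normal and the lowest db/db array. Cxcl16 was 1.84-fold higher in db/db GEC, with means of 8.53 ± 0.27 and 9.41 ± 0.13 on the log2 scale (SD, n = 3) and a log2 change of 0.88 (limma 95% interval 0.48 to 1.27, not adjusted for the number of probesets). Of all probesets 0.436% had a smaller p, and Cxcl16 did not pass when adjusted over all of them (limma adjusted p = 0.404).

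Cx3cl1, or fractalkine, holds monocytes and lymphocytes that carry Cx3cr1. Its log2 signal was 8.68, 8.93 and 8.79 in the normal arrays and 9.28, 9.30 and 9.61 in the db/db arrays. Here too the groups did not overlap, with a gap of 0.35. Cx3cl1 was 1.51-fold higher, with means of 8.80 ± 0.13 and 9.40 ± 0.18 on the log2 scale (SD, n = 3) and a log2 change of 0.60 (95% interval 0.28 to 0.91). Of all probesets 0.731% had a smaller p, and the adjusted p was 0.531 (limma). Diabetic replicate 3 was the highest array for both genes.

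**Figure D1:**
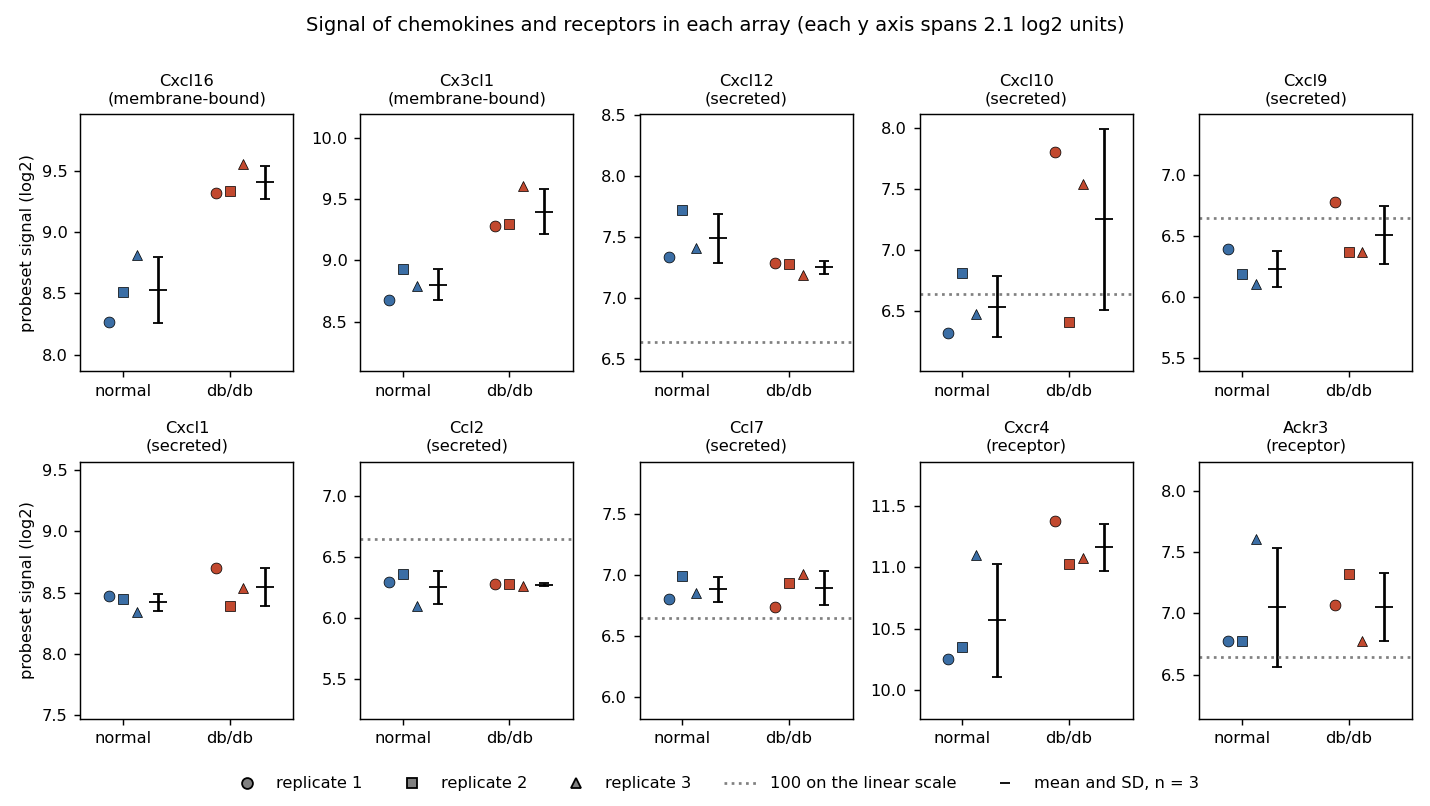
Log2 probeset signal (y axis) of the 10 genes in each normal (blue) and db/db (red) array, with the replicate number as the marker shape, the mean and SD of 3 arrays as bars and the level of 100 as a dotted line. The db/db arrays of Cxcl16 lay at 9.32 to 9.56 against 8.27 to 8.81 in normal arrays, and those of Cxcl10 spread from 6.41 to 7.80.

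The secreted ligands showed small or imprecise changes. Of the 4 past the level filter the mean was higher in db/db for 3 and lower for 1, beside 11130 higher of all 20661 probesets. The 95% interval of each included 0. Cxcl10, which interferon induces and which draws Cxcr3 positive T cells, had a log2 signal of 6.32, 6.81 and 6.48 in normal arrays and 7.80, 6.41 and 7.54 in db/db arrays. Diabetic replicates 1 and 3 lay above all normal arrays, whereas diabetic replicate 2 lay among them. The log2 change was 0.71 with a 95% interval from -0.24 to 1.66 (limma adjusted p = 0.831), and no fold is given because the normal mean was 93.0 on the linear scale. Without diabetic replicate 2 the log2 change was 1.13 (limma adjusted p = 0.554), against 0.60 without normal replicate 1 and 0.68 without normal replicate 3.

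Cxcl9, the neighbour of Cxcl10 and another ligand of Cxcr3, lay at 6.39, 6.19 and 6.11 in normal arrays and 6.78, 6.37 and 6.37 in db/db arrays. Diabetic replicate 1, the highest array for Cxcl10 and Cxcl1 too, was the one array above the level of 100. Cxcl1, a neutrophil attractant that binds Cxcr2, had 8.47, 8.45 and 8.34 in normal arrays and 8.70, 8.39 and 8.54 in db/db arrays. The groups overlapped, with a log2 change of 0.12 (95% interval -0.14 to 0.39, limma adjusted p = 0.895). The change of Cxcl1 was 0.044 without diabetic replicate 1, 0.20 without diabetic replicate 2 and 0.081 without normal replicate 3.

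Ccl2 and Ccl7, which draw Ccr2 positive monocytes, showed little signal or difference. Ccl2 was under 100 in each array, between 6.10 and 6.36 in normal and 6.26 and 6.28 in db/db arrays. Ccl7 lay at 6.80, 6.99 and 6.85 in normal arrays and 6.74, 6.93 and 7.01 in db/db arrays. Its log2 change was 0.015 with a 95% interval from -0.25 to 0.29, and its sign turned with quantile normalisation and with median centring. The interval does not reach a change in signal of the size of Cxcl16. The linear means of Ccl7, 118 and 119, lay close to the level filter, so this need not bound a change in its RNA.

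Cxcl12, the ligand of Cxcr4 and Ackr3 that holds and guides haematopoietic and endothelial cells, was the one tested member with each db/db array below each normal array. Its log2 signal was 7.34, 7.72 and 7.41 in normal arrays and 7.29, 7.28 and 7.19 in db/db arrays. The gap between the groups was 0.057, and the log2 change was -0.23 (95% interval -0.53 to 0.067, limma adjusted p = 0.825). Without normal replicate 2, the highest array, the log2 change was -0.12.

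The receptors of Cxcl12 differed from each other in their pattern over the arrays. Cxcr4, a signalling receptor found on endothelial tip cells and leukocytes, had 10.25, 10.35 and 11.10 in normal arrays and 11.38, 11.03 and 11.08 in db/db arrays. Normal replicate 3 lay within the db/db range and the other normal arrays lay below it. Cxcr4 had a log2 change of 0.60, as large as that of Cx3cl1, with a wider 95% interval from -0.027 to 1.22 (limma adjusted p = 0.783). Without normal replicate 3 the change was 0.86 (limma adjusted p = 0.559). It was 0.44 without normal replicate 1, and 0.49 without normal replicate 2 or diabetic replicate 1. The unadjusted p was under 0.05 in 5 of 18 alternatives. These were the fit without normal replicate 3, array weights, 1 probeset per gene, only probesets with 1 gene symbol, and the mean of a gene's probesets. Since Cxcr4 has 1 probeset, the settings of probeset choice left its values and its change of 0.60 as in the main fit. They differed only in the other probesets from which limma borrows spread.

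Ackr3, an atypical receptor that takes up Cxcl12 without signalling through G proteins, had 6.77, 6.77 and 7.61 in normal arrays and 7.07, 7.32 and 6.77 in db/db arrays. The means were 7.05 in both groups, with a log2 change of 0.00077 and a 95% interval from -0.69 to 0.69. This interval is too wide to exclude a change of the size seen for Cx3cl1 or Cxcr4. Normal replicate 3 was the highest normal array for both receptors.

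Of the 8 members tested 2 had an unadjusted p under 0.05 and were higher in db/db GEC, 0 were lower, and 6 did not pass, beside 3.48% higher and 2.91% lower among all probesets. The groups did not overlap for 3 members, with Cxcl16 and Cx3cl1 higher and Cxcl12 lower, beside 7.01% and 5.31% of all probesets. The median log2 change was 0.36 over the 8 members and 0.014 over all probesets tested. The members were chosen with earlier results known, so these counts describe them and do not test them.

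**Figure D2:**
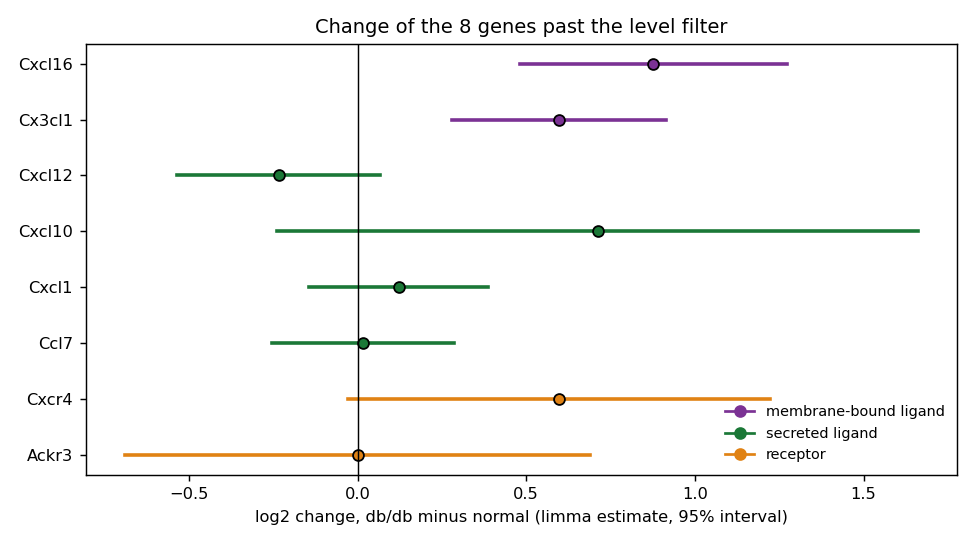
Log2 change, db/db minus normal (x axis), of the 8 genes past the level filter (y axis), as limma's estimate (points) with its 95% interval (lines), coloured by role. The intervals of Cxcl16 (0.48 to 1.27) and Cx3cl1 (0.28 to 0.91) lie above 0 and those of the other 6 genes include 0.

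Membrane-bound and secreted chemokines were set side by side with each gene centred on its mean over the 6 arrays. The mean of Cxcl16 and Cx3cl1 was -0.56, -0.31 and -0.24 in normal replicates 1 to 3 and 0.27, 0.29 and 0.55 in diabetic replicates 1 to 3. The mean of the 4 secreted members past the level filter, Cxcl12, Cxcl10, Cxcl1 and Ccl7, was -0.18, 0.084 and -0.14 in normal arrays and 0.22, -0.15 and 0.16 in db/db arrays. The membrane-bound values did not overlap between the groups, whereas the secreted values did. The former follows from Cxcl16 and Cx3cl1, neither of which overlapped, and is no further result. The membrane-bound mean was 0.74 higher in db/db and the secreted mean 0.15 higher.

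The difference between them, membrane-bound minus secreted, was -0.29 ± 0.17 log2 units in the normal and 0.29 ± 0.21 in the db/db group (SD, n = 3). It was 0.58 larger in db/db, more than the spread in either group, and each db/db array lay above each normal array. In diabetic replicate 1 it was 0.046, the smallest of the db/db values, since Cxcl10 and Cxcl1 were also high there. Without diabetic replicate 1, where Cxcl10 falls under the level filter, the value was 0.82, and without Cxcl12 it was 0.45. The secreted members had lower signal, with linear means in normal arrays of 93.0 for Cxcl10, 118 for Ccl7, 179 for Cxcl12 and 343 for Cxcl1. Those of Cxcl16 and Cx3cl1 were 369 and 446. With a filter of 200 on the linear scale Cxcl1 was the only secreted member left, and the value was 0.62. The part of signal level in this difference was not tested. No p was taken for a score over these chosen genes.

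**Figure D3:**
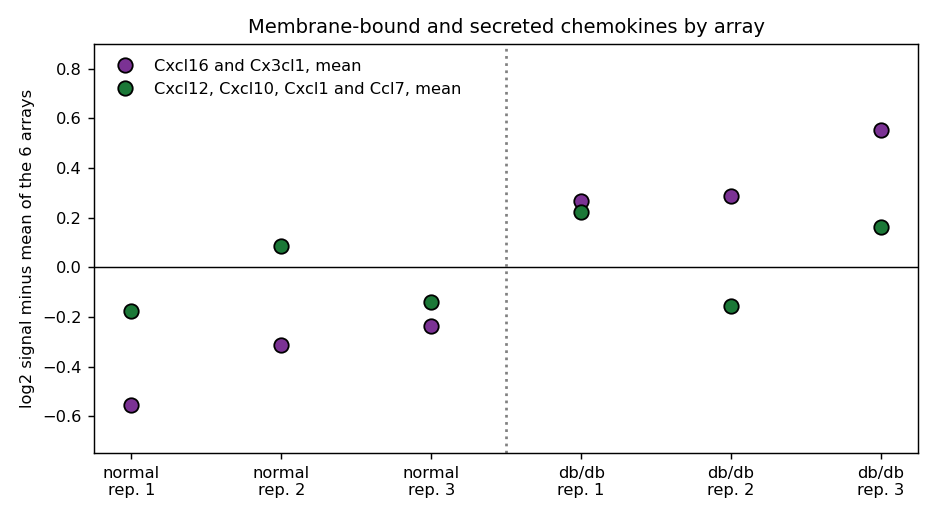
Log2 signal centred on the mean of 6 arrays (y axis), as the mean over Cxcl16 and Cx3cl1 (purple) and over 4 secreted chemokines (green), in each array (x axis). The membrane-bound mean lay between -0.56 and -0.24 in normal and between 0.27 and 0.55 in db/db arrays, and the secreted mean overlapped between the groups.

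The receptors that bind the ligands are mostly carried by leukocytes. Cx3cr1, the receptor of Cx3cl1, had 7.74, 7.73 and 7.66 in normal arrays and 7.88, 8.04 and 8.07 in db/db arrays. Each db/db array was higher, by a log2 change of 0.29 (95% interval 0.074 to 0.51, limma adjusted p = 0.684). Cxcr3, the receptor of Cxcl9 and Cxcl10, lay between 7.02 and 7.30 in normal and 7.09 and 7.16 in db/db arrays, with a log2 change of -0.0079 (95% interval -0.26 to 0.24). Cxcr6, the receptor of Cxcl16, reached the level of 100 in 1 array and was not tested, at 6.50, 6.53 and 6.71 in normal and 6.32, 6.43 and 6.40 in db/db arrays. Cxcr2 and Ccr2 were under 100 in each array.

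The proteases that shed Cxcl16 and Cx3cl1 were measured well above the filter. Adam10 lay between 11.17 and 11.33 in normal and between 11.23 and 11.50 in db/db arrays, with a log2 change of 0.085 (95% interval -0.17 to 0.34). The Adam10 change was 0.011 without diabetic replicate 1, 0.035 without normal replicate 3 and 0.14 without diabetic replicate 2. Adam17 had 10.51, 10.14 and 10.57 in normal arrays and 10.75, 10.66 and 10.59 in db/db arrays. These groups lay close together without overlapping, and the log2 change was 0.26 (95% interval -0.080 to 0.60), or 0.13 without normal replicate 2. Of 6 genes of chemokine shedding and cleavage 0 passed in either direction. All 6 had a higher mean in db/db, beside 11130 of all 20661 probesets. The median log2 change was 0.34, beside 0.014 over all probesets, with Mmp9 at 0.15. Only the db/db arrays of Mmp9, at 6.65 or more, reached the level filter, and its normal arrays lay between 6.46 and 6.59. The higher mean of Mmp9 thus follows from the filter and adds nothing to the count of 6.

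Among 25 other chemokine ligands 11 passed the level filter, with a median log2 change of -0.011. Of these 1 had an unadjusted p under 0.05 and was higher, 0 were lower and 10 did not pass. Among all probesets 3.48% were higher and 2.91% lower. The gene that was higher was Cxcl13, an attractant of B cells, with 7.00, 7.08 and 7.06 in normal arrays and 7.70, 7.38 and 7.39 in db/db arrays. The groups did not overlap, and the log2 change was 0.44 (95% interval 0.16 to 0.72, limma adjusted p = 0.604). Cxcl2, a relative of Cxcl1 named after its values were seen, was under the filter, with 7.37 in diabetic replicate 1 and values between 4.91 and 5.66 in the other 5 arrays.

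Of 20 other chemokine receptors on the array 7 passed the level filter. Of these 1 was higher (Cx3cr1), 1 lower and 5 did not pass, beside 3.48% higher and 2.91% lower among all probesets. The lower gene was Ccrl2, an atypical receptor that presents the attractant chemerin on endothelium and does not signal. Its log2 signal was 12.07, 12.22 and 11.99 in normal arrays and 11.78, 11.65 and 11.67 in db/db arrays. Each db/db array was lower, with a log2 change of -0.39 (95% interval -0.63 to -0.15, limma adjusted p = 0.581). The median log2 change of the 7 receptors was -0.0079.

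Of 11 genes of chemokine receptor signalling past the filter 0 passed in either direction, with a median log2 change of 0.030. Grk5 and Grk6, kinases that desensitise these receptors, differed by -0.35 and 0.15 on the log2 scale, short of the threshold. The Grk5 change was -0.22 without normal replicate 3, and without normal replicate 1 it was -0.47, with an unadjusted p under 0.05. Another list held 15 receptors and factors of the pathways that induce chemokine genes. It mixes inducers with Nfkbia, Tnfaip3, Socs1 and Socs3, which restrain these pathways, so its counts give no direction for inducers alone. Of the 15, 1 was higher, 0 were lower and 14 did not pass, beside 3.48% higher and 2.91% lower among all probesets. The mean was higher in db/db for 13, beside 11130 of all 20661 probesets, and the median log2 change was 0.18. The gene that was higher was Tnfaip3, an NF-kappaB target that dampens the pathway, with 8.21, 7.31 and 7.93 in normal arrays and 9.04, 8.67 and 8.44 in db/db arrays (log2 change 0.90, limma adjusted p = 0.684). The Tnfaip3 change was 0.64 without normal replicate 2, and its unadjusted p was 0.05 or more without diabetic replicate 1.

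**Figure D4:**
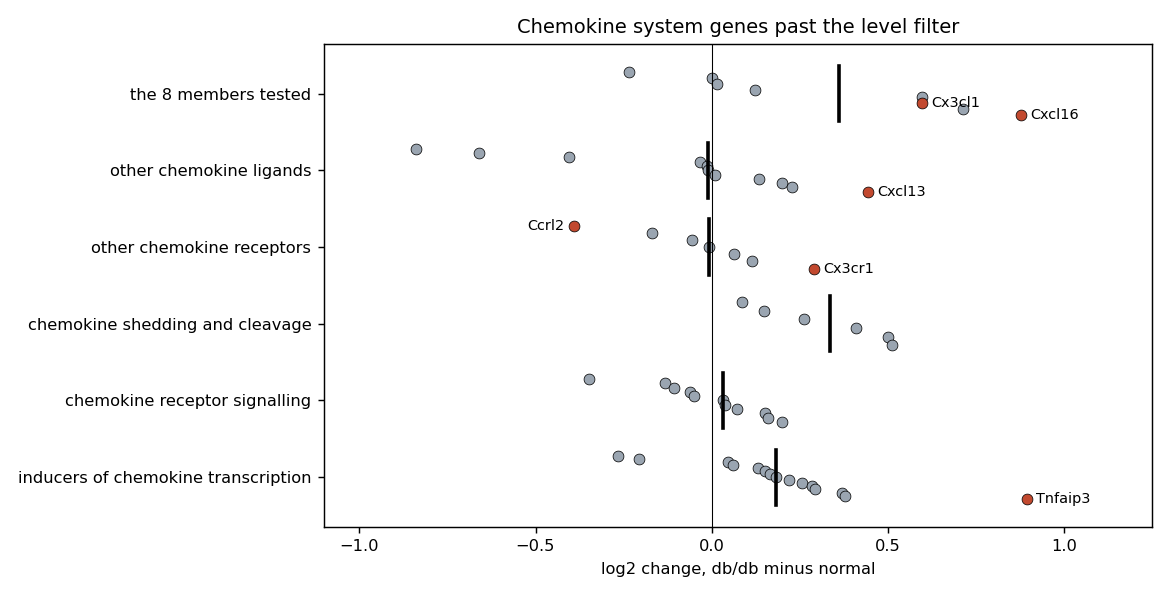
Log2 change, db/db minus normal (x axis), of the genes past the level filter in each list (rows), with unadjusted limma p under 0.05 in red and list medians as black bars. The 8 members had a median of 0.36, against -0.011 for other ligands and -0.0079 for other receptors.

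The genes whose centred values were closest to a member over the 6 arrays were found among 12763 genes by the root mean square difference in log2 units. For Cxcl16 they were Nynrin (0.10), Stard3nl (0.13) and Mettl6 (0.15), and for Cx3cl1 they were Mrpl51 (0.079), Lcp1 (0.095) and Flrt2 (0.10). For Cxcr4 they were Chrac1 (0.097), Memo1 (0.12) and Tma16 (0.13). For Cxcl10 they were Ctss (0.19), Tubb3 (0.20) and Dglucy (0.21), and the values of Ctss were 9.60, 8.31 and 9.07 in diabetic replicates 1 to 3. With 6 arrays and this many genes, a close likeness is a description of these arrays alone.

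Several members and their receptors are also leukocyte genes. Of 19 leukocyte markers on the array 7 passed the level filter and 9, among them Ptprc, Adgre1, Itgam and Csf1r, were under 100 in each array. The summed linear signal of the list lay between 2238 and 2780 in normal and between 1873 and 3120 in db/db arrays. The mean log2 signal was highest in diabetic replicate 1 (6.72) and lowest in diabetic replicate 2 (6.31), the arrays in which Cxcl10 was highest and lowest among the db/db arrays. Cd68, a macrophage marker, had 6.63, 6.72 and 6.81 in normal arrays and 7.95, 7.59 and 6.91 in db/db arrays (log2 change 0.76, limma adjusted p = 0.752). Cd14 went the other way, with 8.70, 9.97 and 8.43 in normal and 8.30, 8.38 and 8.31 in db/db arrays (log2 change -0.71, limma adjusted p = 0.840). The size of the Cd14 change rests largely on normal replicate 2, and the gap between the groups was 0.053. Of the 7 tested markers 1 was higher and 0 were lower at an unadjusted p under 0.05, beside 3.48% and 2.91% of all probesets. The mean was higher in db/db for 3 of them and lower for 4. The Cd68 call was lost in 5 of the 6 fits that left out 1 array, all but that without diabetic replicate 3. It was also lost with a replicate block and with the methods' t-test. The part of these cells in the members' values and in that of Cx3cr1 was not tested.

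Markers of other cells were compared in the same arrays. The summed linear signal of 7 tubule markers was 712 to 821 in normal and 837 to 928 in db/db arrays, with 0 of 4 tested past an unadjusted p of 0.05, and Umod, of the thick ascending limb, and Slc12a3, of the distal tubule, had log2 changes of 0.31 and 0.19. Only the db/db arrays of Umod, at 6.68 to 6.87, reached the level filter, and its normal arrays lay between 6.24 and 6.63. The higher mean of Umod thus follows from the filter and is no separate sign of more tubule signal. The change of Umod was 0.20 without normal replicate 3, and that of Slc12a3 was 0.079 without diabetic replicate 2 and 0.13 without normal replicate 3. The summed signal of 6 podocyte markers was 4892 to 5863 in normal and 4386 to 4463 in db/db arrays. Podxl alone had linear means of 4322 in normal and 3576 in db/db arrays, and endothelium makes Podxl too. Nphs1, Synpo and Wt1 had higher means in db/db, by log2 changes of 0.063, 0.24 and 0.079, short of an unadjusted p of 0.05. Cdkn1c and Podxl were lower, by log2 changes of -0.40 and -0.27 (limma adjusted p = 0.677 and 0.754). The call was lost for Cdkn1c without diabetic replicate 3. For Podxl it was lost without each array except normal replicate 3, with a replicate block and with quantile normalisation. The summed signal of 5 mesangial and pericyte markers overlapped, at 480 to 612 and 494 to 738, with log2 changes of 0.22 for Tagln and 0.095 for Acta2, both of which turned sign without some single arrays. That of 4 erythrocyte and platelet markers was 597 to 648 and 647 to 670, with log2 changes of 0.26 for Itga2b, or 0.15 without diabetic replicate 1, and -0.099 for Alas2, which ran from -0.17 without normal replicate 1 and -0.16 without diabetic replicate 2 to -0.0066 without normal replicate 3. The probesets shared by the alpha-globin genes were lower, at 11.48 ± 0.20 against 9.42 ± 0.66 on the log2 scale (SD, n = 3). Among endothelial markers Cdh5 was higher and Tek, the gene whose promoter drives the transgene, was lower, with log2 changes of 0.21 and -0.33 (limma adjusted p = 0.754 for both). Both calls were lost with a replicate block, that of Cdh5 also without each array in turn and that of Tek without each array except normal replicate 2 and diabetic replicate 2. The part of these differences in the members' values was not tested.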

How the data were processed

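RNA of sorted GEC was measured on 6 arrays. The deposited values are log2 probeset signal. The study's methods name RMA in GeneSpring, while per the labels the processing notes name MAS5 alone. Sorted values of the arrays differed by at most 0.114, as after equalising distributions, so changes are relative to the rest of an array, and no further normalisation was applied. The annotation gave 21789 of 35557 probesets 1 gene symbol, while 1621 had more than one and 12147 had none.

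Probesets at 100 or more in 3 or more arrays were tested with limma (version 3.58.1, R 4.3.3) by lmFit and eBayes, as a two-sided comparison of db/db with normal, and p-values were adjusted by Benjamini-Hochberg over the 20661. The script was tested on simulated data. The number of arrays limits the precision, and an exact permutation test of 3 against 3 cannot give a two-sided p below 0.1. The members and lists were chosen with earlier results of these data known. Genes outside the members were named for an unadjusted p under 0.05 (up to 4 per list by size of change, otherwise the 2 with the smallest p), with the receptors and shedding proteases of the ligands. Some listed genes were not analysed here. The labels do not say that replicate numbers pair the arrays, so the main fit held no block. Alternatives were other scalings, filters, variance models, probeset choices, a replicate block, the methods' t-test and leaving out each array. Promoter windows came from RefSeq (GRCm38.p6). Plots used matplotlib 3.10.9 (Python 3.11.15).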

Additional observations from a re-analysis of the deposited data

How the results depend on the processing

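Over the 18 alternatives Cxcl16 and Cx3cl1 were higher in db/db GEC, each with an unadjusted p under 0.05 and 0 with an adjusted p under 0.05. The log2 change ran from 0.75 to 1.02 for Cxcl16 (adjusted p 0.260 to 0.879) and from 0.49 to 0.66 for Cx3cl1 (adjusted p 0.382 to 0.887). The count of members with an unadjusted p under 0.05 was 2 or 3, with 3 where Cxcr4 or, without diabetic replicate 2, Cxcl10 joined. Cxcl10 was under the filter, and not tested, without normal replicate 2, diabetic replicate 1 or diabetic replicate 3. Over all probesets 0 passed, except that 1, Scn7a, was lower with 1 probeset per gene (smallest adjusted p = 0.0336) and when probesets without exactly 1 gene symbol were dropped (0.0467). The cause was not tested. The methods' t-test called 1280 probesets at its unadjusted threshold and 313 with its fold threshold too, among them Cxcl16 and Cx3cl1, and 0 after adjustment. Membrane-bound minus secreted ran from 0.51 to 0.82 when each array was left out.

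Changes near 0 turned sign. Ccl7 was at -0.013 with quantile normalisation, -0.0019 with median centring and -0.044 to 0.094 without single arrays. Ackr3 was at -0.0027, -0.017 and -0.14 to 0.28 in the same settings, Cxcr3 at 0.016 with array weights and -0.064 to 0.076 without single arrays, Tagln at -0.018 to 0.36 and Acta2 at -0.15 to 0.43 without single arrays. Cx3cr1 had an unadjusted p of 0.05 or more in 3 of 18 alternatives, and Ccrl2 had one below 0.05 in all 18. It was below 0.05 in 17 of 18 alternatives for Tnfaip3 and Cdkn1c, 13 of 18 for Tek, 11 of 18 for Cdh5 and Podxl, and 10 of 17 for Cd68. Deviations from the group mean in same-numbered normal and diabetic arrays correlated with r between -0.030 and 0.035. With 3 arrays per group this cannot exclude a pairing. With a replicate block 0 probesets passed (smallest adjusted p = 0.530), and the membrane-bound minus secreted value was 0.58.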
